A study of Mus musculus with 10 samples.

Results

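The genes described here are markers of macrophages and other myeloid cells, with a few genes of all leukocytes, in mouse lung tumours that had been depleted of cells bearing CD45. They were chosen by name, as 40 symbols, with earlier results of the same libraries known, so their difference between the groups is a description and not a test. Of the 40 genes, 38 were found under their symbol among the 39017 genes of the count table. Chil3 and Adgre1 stood there under older symbols and were matched by their identifiers, and are given apart from the counts. 36 of the 38 passed the filter on low counts, and Marco and Siglec1 did not. The members were grouped into 8 pan-leukocyte genes, 15 pan-myeloid genes, 6 genes of alveolar macrophages with Chil3 among them, 8 genes of monocyte-derived macrophages with Adgre1 among them, and 3 neutrophil genes. This grouping follows common use, and several members are shared between cell types.

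The study compared the RNA of lung tumours that do or do not lack Glut1, the glucose transporter encoded by Slc2a1. Both groups were C57BL/6 mice with p53Fl/Fl alleles and an oncogene allele that stays silent until Cre acts on it, and both received the Ad5CC10-Cre virus into the trachea, which drives Cre from a promoter active in club cells of the airways. The Control group (KP, 5 libraries) was labelled heterozygous fl/wt for Glut1, although the design text speaks of wild-type Glut1, and the Glut1-KO group (KPG1, 5 libraries) was labelled homozygous fl/fl. Tumours were taken 20 weeks and 1 day after they were initiated with the virus, dissociated to single cells and passed over anti-CD45 beads. Cre from this promoter reaches epithelial cells, so leukocytes in the tumours were not the cells in which the floxed alleles were to be cut. All Control libraries came from males, whereas replicates 1 to 3 of Glut1-KO came from females and replicates 4 and 5 from males. No label ties libraries to animals. A second number in the deposited column names takes only 2 values among the 5 Control libraries and 4 values among the Glut1-KO libraries, of which the male replicates 4 and 5 share 1, and 0 values occur in both groups. It could mark the mouse, which would leave fewer animals than libraries, and n counts libraries throughout.

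CD45, the product of Ptprc, is a phosphatase on the surface of nearly all leukocytes, and beads against it are meant to leave epithelial, endothelial and stromal cells. The lung holds resident alveolar macrophages, which live in the air spaces and clear surfactant, and macrophages that derive from blood monocytes and are rich in complement C1q. Both kinds depend on the transcription factor PU.1, encoded by Spi1, and sense their surroundings through receptors that signal by way of the adaptors Tyrobp and Fcer1g.

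Libraries held 35.3 to 49.8 M counts. Levels are counts per M after TMM scaling (CPM), in the order of replicates 1 to 5 of each group. Slc2a1 stood at 118, 86.7, 92.6, 103 and 73.2 CPM in Control and at 60.3, 42.5, 34.6, 92.4 and 103 CPM in the group labelled Glut1-KO. The 3 female Glut1-KO libraries were below every Control library, and both male ones lay within the Control range. Low Slc2a1 and female sex therefore coincide within the Glut1-KO group and cannot be told apart. Epcam, a surface protein of epithelial cells, stood at 352 to 619 CPM in Control and 363 to 527 CPM in Glut1-KO, so the fractions were rich in epithelial RNA in all libraries.

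Promoters of members whose groups did not overlap are shown first, because these genes carry the pattern reported below and several of them share a short motif. The windows run from 250 bases before to 50 after the start site, in the RefSeq annotation of GRCm38.p6, and were used for 31 of the 40 members. Capitals mark GAGGAA or its reverse complement TTCCTC, the core of many sites bound by PU.1.
Ptprc, chr1:138175256-138175555, minus strand: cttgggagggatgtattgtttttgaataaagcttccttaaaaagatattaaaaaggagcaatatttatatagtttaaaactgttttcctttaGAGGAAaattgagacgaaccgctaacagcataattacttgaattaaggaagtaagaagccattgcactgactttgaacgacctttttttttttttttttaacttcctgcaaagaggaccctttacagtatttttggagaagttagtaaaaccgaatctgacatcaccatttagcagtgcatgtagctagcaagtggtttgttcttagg
Laptm5, chr4:130913066-130913365, plus strand: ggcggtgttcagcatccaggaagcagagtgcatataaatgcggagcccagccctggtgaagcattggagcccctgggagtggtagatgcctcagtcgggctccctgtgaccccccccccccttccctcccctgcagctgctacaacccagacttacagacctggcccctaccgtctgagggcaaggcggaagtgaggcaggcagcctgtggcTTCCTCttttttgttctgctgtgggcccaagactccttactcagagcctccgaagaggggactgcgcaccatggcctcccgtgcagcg
Plek, chr11:17008669-17008968, minus strand: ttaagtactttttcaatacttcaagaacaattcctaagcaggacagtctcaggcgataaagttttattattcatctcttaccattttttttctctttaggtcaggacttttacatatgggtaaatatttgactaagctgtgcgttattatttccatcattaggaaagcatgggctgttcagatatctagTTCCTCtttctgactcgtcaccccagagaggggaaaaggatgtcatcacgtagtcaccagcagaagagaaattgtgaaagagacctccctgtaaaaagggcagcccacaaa
Dock2, chr11:34783856-34784155, minus strand: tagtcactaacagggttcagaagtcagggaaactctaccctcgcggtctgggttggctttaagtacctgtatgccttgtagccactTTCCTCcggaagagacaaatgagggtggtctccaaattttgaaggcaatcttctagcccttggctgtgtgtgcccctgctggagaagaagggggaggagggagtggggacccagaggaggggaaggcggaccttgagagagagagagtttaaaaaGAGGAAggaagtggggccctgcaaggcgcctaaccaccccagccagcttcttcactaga
Cybb, chrX:9469275-9469574, minus strand: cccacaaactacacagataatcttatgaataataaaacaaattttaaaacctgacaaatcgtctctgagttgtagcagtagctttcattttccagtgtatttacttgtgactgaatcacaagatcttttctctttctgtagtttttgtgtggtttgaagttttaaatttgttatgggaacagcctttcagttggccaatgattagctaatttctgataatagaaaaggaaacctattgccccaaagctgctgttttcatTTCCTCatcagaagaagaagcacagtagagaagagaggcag
Fcer1g, chr1:171234300-171234599, minus strand: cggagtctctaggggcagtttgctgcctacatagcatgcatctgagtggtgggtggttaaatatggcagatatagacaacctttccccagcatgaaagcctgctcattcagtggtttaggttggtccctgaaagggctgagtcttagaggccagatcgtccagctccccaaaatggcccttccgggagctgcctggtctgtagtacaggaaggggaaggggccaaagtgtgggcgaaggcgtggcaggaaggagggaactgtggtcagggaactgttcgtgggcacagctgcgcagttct
Ear2, chr14:44102404-44102703, plus strand: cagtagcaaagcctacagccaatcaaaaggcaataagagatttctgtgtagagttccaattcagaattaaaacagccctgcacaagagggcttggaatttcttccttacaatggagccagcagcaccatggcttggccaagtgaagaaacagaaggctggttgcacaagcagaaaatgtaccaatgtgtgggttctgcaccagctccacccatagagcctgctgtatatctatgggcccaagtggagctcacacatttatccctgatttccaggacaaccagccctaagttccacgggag
These Ptprc, Laptm5, Plek and Cybb windows each hold the motif 1 time and the Dock2 window holds it 2 times. The other annotated start of Ptprc (chr1:138175077-138175376) and both windows of Coro1a, which are not printed, do not hold it, and the Fcgr1 window, also not printed, holds it 1 time. The windows of Ear2 and Fcer1g, which had the largest log2 fold changes among the 36 tested members found by symbol, do not hold these letters. Searched on both strands, GAGGAA was in 23 of the 36 member windows (63.9%) and in 9289 of all 32851 windows of this length (28.3%). Among the 11 windows of members whose groups did not overlap it was in 6 (54.5%). TATAAA, the core of the TATA box, searched in the same way, was in 6 of the 36 member windows (16.7%) and in 13.6% of all windows. A match is a description of sequence and not of binding.

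Ptprc itself was the member nearest to the depletion step. Ptprc (ENSMUSG00000026395, chr1:138062861-138175708, minus strand) stood at 2.48, 2.30, 3.26, 3.23 and 2.53 CPM in Control and at 10.1, 8.32, 6.31, 9.85 and 5.05 CPM in Glut1-KO, from 98 to 132 and from 223 to 413 reads. Every Glut1-KO library, female or male, was above every Control library, and all Control libraries were male. The means were 2.76 ± 0.451 and 7.92 ± 2.19 CPM (SD, n = 5 each), a ratio of 2.87, and the log2 fold change fitted by limma was 1.47 with an SE of 0.25. More remaining CD45-positive cells and more RNA per such cell cannot be told apart in bulk libraries, and how fully each sample was depleted was not measured.

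Of the 36 tested members, 34 had a positive and 2 a negative log2 fold change in Glut1-KO against Control, with a median of 0.89 beside -0.005 over all 15922 genes tested. Cd53, Fcgr3, Cd14 and Trem2 are among the positive ones, although their ratios of mean CPM were 0.93, 0.968, 0.986 and 0.866. Over all genes 49.3% had a positive value. 14 members had a log2 fold change of at least 1 and 8 lay between 0 and 0.5. In 13 members all 5 Glut1-KO libraries were above all 5 Control libraries, and in 0 members were they all below, where 0.798% of all genes were without overlap upward and 1.06% downward. Without Glut1-KO replicate 5 the count was 20 (1.89% of all genes upward). In limma, 0 members and 0 genes in all (0%) had an adjusted p below 0.05, 21 members had an unadjusted p below 0.05, all of them higher, and 3.66% of all genes had such a p and a higher value. The quasi-likelihood test of edgeR also called 0 members (0% of all genes), with 1409 genes at an unadjusted p below 0.05 against 1223 in limma. DESeq2 called 13 members, all higher, and 0.691% of all genes higher. These were not the same 13 as the members without overlap. Itgax and C1qb, whose groups overlapped, were called, and Spi1 and Fcgr1, whose groups did not, were not called. Because the members were picked from these libraries, nothing is read from these counts beyond their size.

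**Figure D1:**
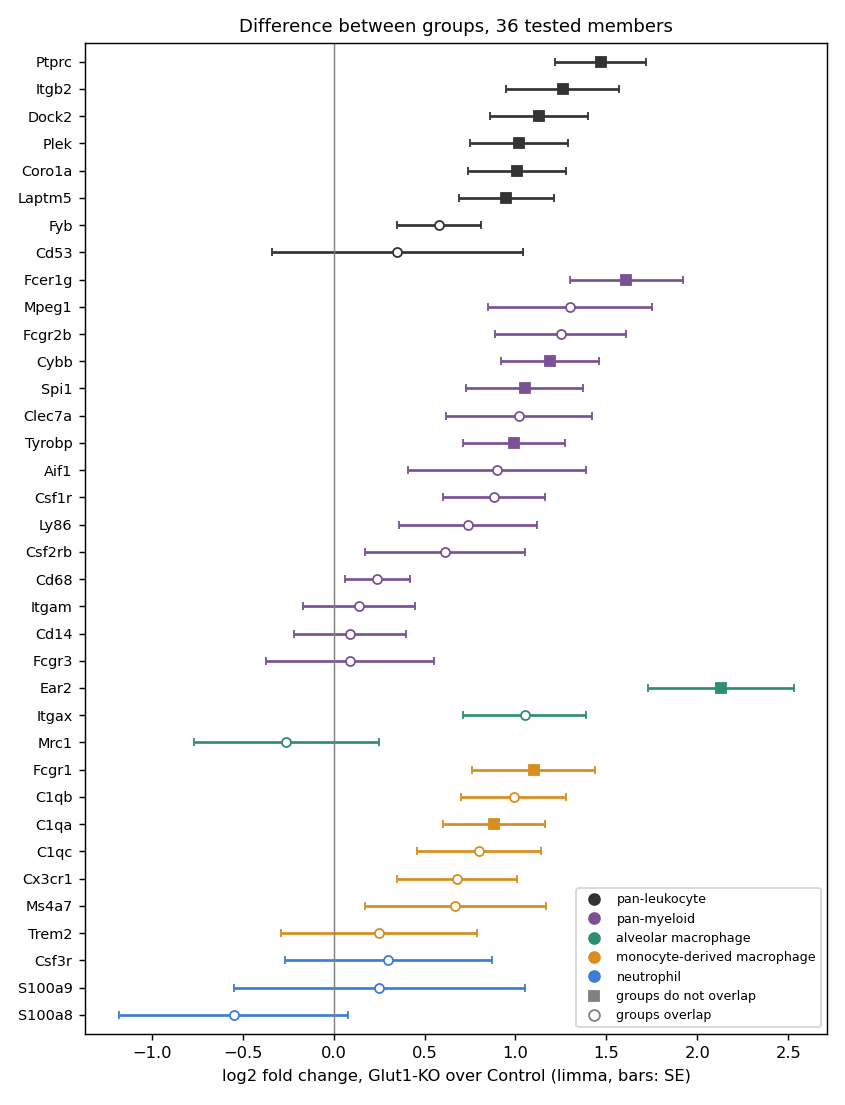
Log2 fold change of Glut1-KO over Control for the 36 tested members (x axis, bars are SE from limma), coloured by class and ordered by value within each class; filled squares are members whose groups did not overlap. The 8 pan-leukocyte and 15 pan-myeloid members all lie right of 0, Ear2 lies farthest right at 2.13, and Mrc1 (-0.26) and S100a8 (-0.55) lie left of it.

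The pan-leukocyte members besides Ptprc encode proteins of adhesion, the cytoskeleton and signalling that most white blood cells share. All 8 had a positive log2 fold change, from 0.35 to 1.47 with a median of 1.01, and 6 were without overlap. Laptm5, a lysosomal membrane protein of blood cells, stood at 5.11, 2.73, 3.78, 4.20 and 2.85 CPM in Control and 10.4, 8.32, 5.28, 6.63 and 5.46 CPM in Glut1-KO. The lowest Glut1-KO library was just above the highest Control library. Plek, pleckstrin, a target of protein kinase C, stood at 3.27, 2.84, 2.89, 3.41 and 2.53 CPM in Control and 8.59, 8.44, 4.02, 6.23 and 4.44 CPM in Glut1-KO, with replicates 1 and 2 of Glut1-KO well above the rest. Itgb2, the beta chain shared by the leukocyte integrins, stood at 1.72, 1.24, 2.12, 1.98 and 0.868 CPM in Control and 4.92, 4.66, 2.43, 2.98 and 3.71 CPM in Glut1-KO (log2 fold change 1.26, SE 0.31). Coro1a, an actin-binding coronin, stood at 0.861, 1.06, 1.31, 1.2 and 1.11 CPM in Control and 3.19, 2.90, 1.84, 1.96 and 1.61 CPM in Glut1-KO. For both genes the groups were apart, and replicates 1 and 2 of Glut1-KO were again the highest. Dock2, an activator of Rac in leukocytes, stood at 0.810, 0.724, 0.889, 0.560 and 0.723 CPM in Control and 2.17, 2.09, 1.3, 1.17 and 1.59 CPM in Glut1-KO, from as few as 22 reads. Fyb, an adaptor of integrin signalling, overlapped only through replicate 5 of Glut1-KO at 2.54 CPM, against 2.27 to 2.92 CPM in Control. Cd53, a tetraspanin of leukocytes, stood at 25.5, 10.4, 3.41, 3.13 and 1.62 CPM in Control and 7.18, 10.4, 6.83, 13.9 and 2.65 CPM in Glut1-KO. It spread more within Control than between the groups, and its log2 fold change of 0.35 had an SE of 0.69.

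Among the pan-myeloid members, both adaptors, the oxidase subunit Cybb and Spi1 were the ones whose groups were apart. All 15 had a positive log2 fold change, from 0.09 to 1.61 with a median of 0.90, and 4 were without overlap. Fcer1g, the gamma chain through which Fc and other receptors signal, stood at 0.582, 0.408, 0.618, 0.636 and 0.747 CPM in Control and 1.90, 1.97, 2.87, 1.44 and 1.2 CPM in Glut1-KO. Its ratio of means was 3.14 and its log2 fold change 1.61 (SE 0.31), on 22 to 31 reads a library in Control. Tyrobp, the adaptor DAP12 of Trem2 and related receptors, stood at 1.44, 1.08, 1.48, 1.65 and 1.35 CPM in Control and 4.46, 3.16, 1.84, 2.70 and 2.26 CPM in Glut1-KO. Cybb, the catalytic subunit of the phagocyte NADPH oxidase, stood at 2.08, 1.74, 2.37, 1.93 and 1.59 CPM in Control and 6.60, 6.01, 3.59, 3.71 and 3.12 CPM in Glut1-KO. Both genes had Glut1-KO replicate 1 at the top and narrow Control values. Spi1, which encodes PU.1, stood at 0.329, 0.445, 0.321, 0.509 and 0.410 CPM in Control and 1.39, 0.903, 0.808, 0.767 and 0.521 CPM in Glut1-KO. Its lowest Glut1-KO library exceeded its highest Control library by little, and its read counts, 13 to 24 in Control and 23 to 57 in Glut1-KO, met.

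The 3 most abundant pan-myeloid members overlapped between the groups. Cd14, a co-receptor for bacterial lipopolysaccharide, stood at 307, 116, 154, 176 and 80.6 CPM in Control and 150, 125, 142, 221 and 183 CPM in Glut1-KO. Its means of 167 ± 86.3 and 164 ± 37.9 CPM (SD, n = 5 each) did not differ beyond that spread. Cd68, a lysosomal glycoprotein of macrophages, stood at 15.9, 16.7, 19.8, 18 and 17.1 CPM in Control and 22.7, 17.3, 29.0, 21.6 and 15.4 CPM in Glut1-KO, with 3 of 5 Glut1-KO libraries above all Control ones. Mpeg1, the pore-forming perforin-2 of macrophages, stood at 8.91, 5.57, 18.3, 17.0 and 8.03 CPM in Control and 28.6, 25.7, 35.6, 41.3 and 9.87 CPM in Glut1-KO. Here 4 of 5 Glut1-KO libraries were above all Control ones, and replicate 5 was not. Its log2 fold change was 1.3 with an SE of 0.45, against 0.24 for Cd68 and 0.09 for Cd14. Per kb of exon, Cd14 was at 96.2 CPM in Control, against 13.9 for Cd68, 0.788 for Csf1r and 0.151 for Ptprc. Where its RNA came from was not tested. Summed over the 38 members, levels were 196 to 422 CPM in Control and 315 to 424 CPM in Glut1-KO, and without Cd14 they were 112 to 141 and 132 to 223 CPM, with only replicate 5 of Glut1-KO inside the Control range.

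The remaining pan-myeloid members overlapped between the groups. Csf1r, the receptor for the macrophage growth factors Csf1 and Il34, stood at 3.82, 3.82, 4.22, 5.44 and 5.45 CPM in Control and 12.5, 11.9, 7.21, 6.78 and 5.21 CPM in Glut1-KO, overlapping through replicate 5 alone. Part of its exons (15.12%) lies opposite exons of Hmgxb3, and whether reads were counted by strand is not given in the sources used here. Fcgr2b (inhibitory Fc receptor), Clec7a (dectin-1, a receptor for fungal glucan) and Aif1 (a calcium-binding protein of macrophages) had log2 fold changes of 1.25, 1.02 and 0.90. Ly86 (a partner of a relative of the Toll-like receptors) and Csf2rb (the chain shared by receptors for Csf2, Il3 and Il5) had 0.74 and 0.61. Fcgr3, an activating Fc receptor, and Itgam, the alpha chain CD11b, were at 0.09 and 0.14, and Fcgr3 ranged from 5.57 to 32.1 CPM within Control. The Fc receptor genes, and Csf2rb with its near copy Csf2rb2, have close paralogs, so reads they share could be placed wrongly. Of the exon bases of Itgam, 68.67% are shared in the annotation with Gm49368 on the same strand, so its count is uncertain.

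**Figure D2:**
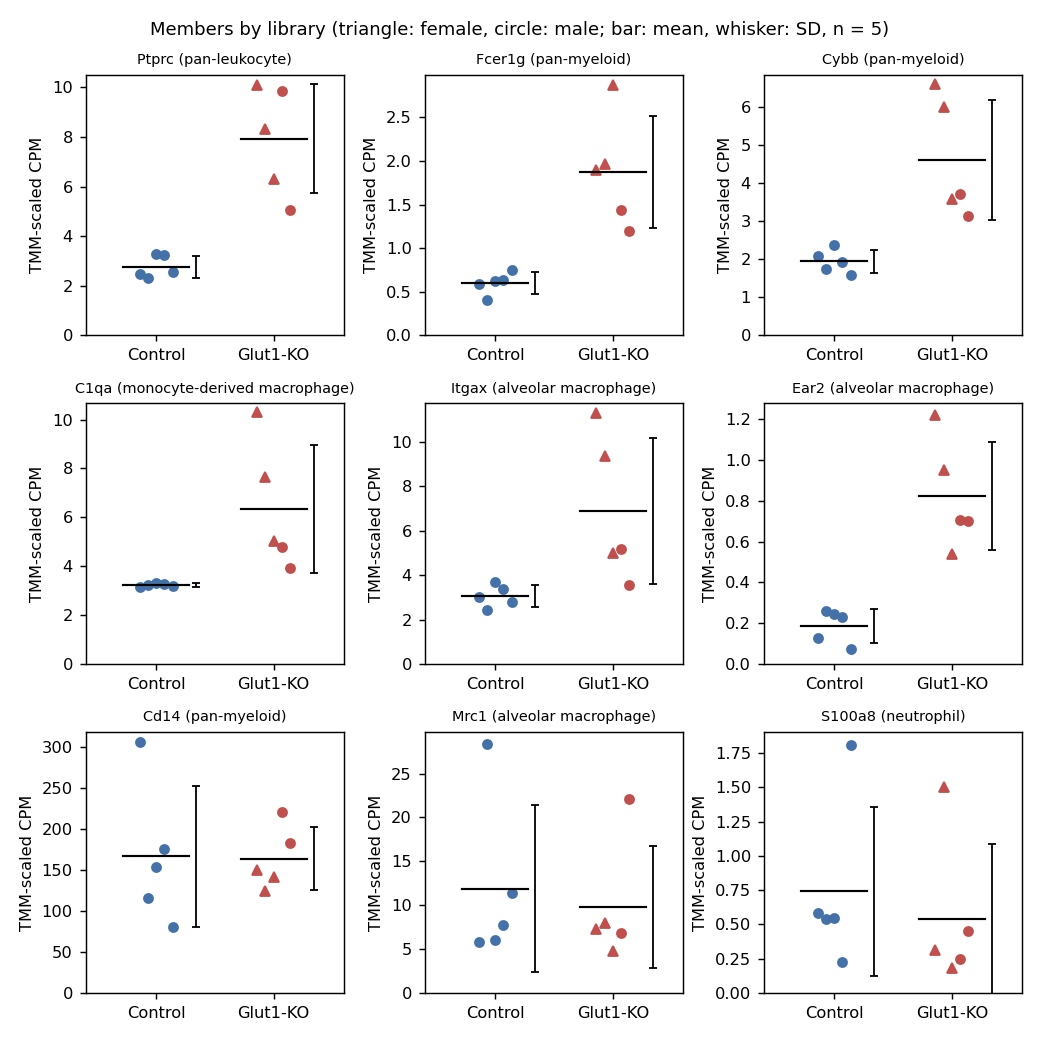
TMM-scaled CPM (y axis, linear) of 9 members in each library of Control and Glut1-KO; triangles are female and circles male libraries, the bar is the mean and the whisker the SD (n = 5). Ptprc, Fcer1g, Cybb, C1qa and Ear2 show groups without overlap, Itgax overlaps through 1 Glut1-KO library, and Cd14, Mrc1 and S100a8 overlap widely with 1 library of a group far above the rest.

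Of the 6 alveolar macrophage members, Mrc1 alone had a lower mean in Glut1-KO. Ear2, a ribonuclease of the eosinophil-associated family that alveolar macrophages also make, stood at 0.127, 0.260, 0.247, 0.229 and 0.0723 CPM in Control and 1.22, 0.951, 0.539, 0.705 and 0.702 CPM in Glut1-KO. It had the largest log2 fold change of the members, 2.13 (SE 0.40), from 3 to 14 reads a library in Control and 23 to 50 in Glut1-KO, and its family holds near-identical copies. Itgax, the alpha chain CD11c, stood at 3.01, 2.45, 3.71, 3.38 and 2.80 CPM in Control and 11.3, 9.39, 5.01, 5.18 and 3.56 CPM in Glut1-KO, overlapping through replicate 5 (log2 fold change 1.05, SE 0.34). Mrc1, the mannose receptor CD206, stood at 5.77, 28.4, 6.00, 7.78 and 11.4 CPM in Control and 7.28, 7.99, 4.83, 6.78 and 22.1 CPM in Glut1-KO. Each group held 1 library far above the rest, and the log2 fold change was -0.26 with an SE of 0.51. Marco, a scavenger receptor, was below the filter, with 0 to 2 reads a library in Control and 2 to 23 in Glut1-KO, of which replicate 5 had the 23. Siglec1, a sialic acid-binding receptor, was also below it, with 1 to 9 reads in Control and 7 to 20 in Glut1-KO. Chil3, a chitinase-like protein of alveolar macrophages that the table lists as Chi3l3, stood at 3.59, 0.501, 1.06, 2.32 and 0.386 CPM in Control and 2.85, 8.18, 2.38, 5.21 and 5.07 CPM in Glut1-KO, with 3 of 5 Glut1-KO libraries above all Control ones and a log2 fold change of 1.96 (SE 0.59). For Marco and Siglec1, 4 of 5 Glut1-KO libraries were above all Control ones.

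The members of monocyte-derived macrophages were led by complement C1q, the recognition part of the classical pathway, whose chains are encoded by adjacent genes on chromosome 4. C1qa stood at 3.14, 3.25, 3.33, 3.28 and 3.18 CPM in Control and 10.3, 7.63, 5.05, 4.78 and 3.92 CPM in Glut1-KO. Control was narrow (3.24 ± 0.0779 CPM, SD, n = 5), and all Glut1-KO libraries were above it but spread widely (6.34 ± 2.62 CPM, SD, n = 5). C1qb stood at 2.53, 2.90, 3.53, 4.10 and 3.54 CPM in Control and 11.0, 8.13, 5.73, 5.55 and 4.08 CPM in Glut1-KO. C1qc stood at 1.42, 2.60, 2.49, 2.98 and 2.77 CPM in Control and 7.91, 5.37, 3.46, 3.4 and 2.51 CPM in Glut1-KO. All 3 chains had the same order of Glut1-KO libraries, highest in replicate 1 and lowest in replicate 5, with log2 fold changes of 0.88, 0.99 and 0.80. Fcgr1, the high-affinity Fc receptor, stood at 0.127, 0.297, 0.346, 0.382 and 0.289 CPM in Control and 0.755, 0.761, 0.516, 0.552 and 0.453 CPM in Glut1-KO, without overlap on 5 to 16 reads a library in Control. Cx3cr1, the fractalkine receptor, and Ms4a7, a membrane protein of macrophages, had log2 fold changes of 0.68 and 0.67 and overlapped. Trem2, a lipid-sensing receptor, was at 0.25 with an SE of 0.54. Its Control replicate 5 reached 2.85 CPM and the other 4 lay between 0.278 and 0.560 CPM. Adgre1, which encodes the macrophage antigen F4/80 and is listed as Emr1, stood at 0.937, 0.891, 0.815, 0.967 and 1.18 CPM in Control and 3.38, 2.26, 1.55, 1.5 and 0.860 CPM in Glut1-KO, overlapping through replicate 5.

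The neutrophil members were low and showed no common direction. Csf3r, the receptor for granulocyte colony-stimulating factor, stood at 1.01, 0.167, 0.346, 0.407 and 0.193 CPM in Control and 0.852, 0.499, 0.157, 0.307 and 0.589 CPM in Glut1-KO. S100a8, a chain of calprotectin, stood at 0.582, 0.538, 0.543, 0.229 and 1.81 CPM in Control and 0.316, 1.5, 0.180, 0.245 and 0.453 CPM in Glut1-KO. S100a9, its partner chain, stood at 0.633, 0.130, 0.346, 0.331 and 0.0241 CPM in Control and 0.146, 0.0713, 0.292, 0.705 and 0.317 CPM in Glut1-KO. The groups overlapped for each gene, and the log2 fold changes were 0.30, -0.55 and 0.25 with SEs of 0.57, 0.63 and 0.80. Although their products pair in calprotectin, S100a8 and S100a9 had a correlation of -0.73 over the 10 libraries once group means were removed, on 8 to 75 and 1 to 25 reads a library.

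As class scores, the mean log2 CPM over the tested members of a class, pan-leukocyte genes were at 1.13 ± 0.25 in Control and 2.11 ± 0.38 in Glut1-KO (SD, n = 5 each), and pan-myeloid genes at 1.52 ± 0.24 and 2.32 ± 0.34. Pan-leukocyte scores did not overlap (at most 1.45 against at least 1.62). Pan-myeloid scores met within 1.76 to 1.82, through replicate 5 of Glut1-KO and replicate 4 of Control. Alveolar macrophage genes (3 tested) were at 0.81 ± 0.40 and 1.80 ± 0.40, and monocyte-derived macrophage genes (7 tested) at 0.16 ± 0.41 and 0.92 ± 0.46, both with overlap. Neutrophil genes were at -1.5 ± 0.68 and -1.51 ± 0.42. The median log2 fold changes were 1.05, 0.80 and 0.25 for these 3 classes. The neutrophil median was -0.16 without Control replicate 5 and -0.11 without Glut1-KO replicate 4, and the alveolar macrophage median, over 3 genes, was 1.56 without Control replicate 4. Omitting a different library raised the neutrophil median, and its full range is given in the closing section. Whether the classes differ from each other was not tested.

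**Figure D3:**
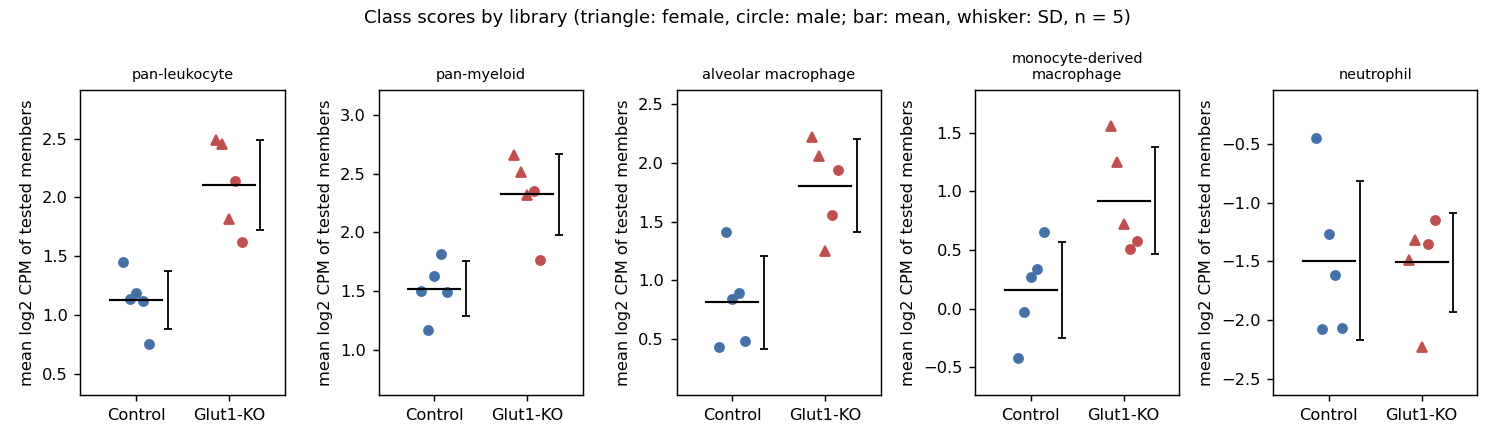
Mean log2 CPM of the tested members of each class (y axis; each panel spans the same range of log2 units around its own centre) in the libraries of Control and Glut1-KO; triangles are female and circles male libraries, the bar is the mean and the whisker the SD (n = 5). Pan-leukocyte scores are apart, from 0.75 to 1.45 in Control and from 1.62 to 2.49 in Glut1-KO, and neutrophil scores overlap widely.

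Within the Glut1-KO group, replicate 1 was the highest library for 19 of the 36 tested members (14.5% of all genes) and replicate 5 the lowest for 18 (23.6% of all genes). All 3 female libraries were above both male ones for 12 members (20.6% of all genes), and both male ones were above all female ones for 4 (20.3% of all genes). Against Control, all 3 female libraries were above every Control library for 22 of these members (4.16% of all genes) and both male libraries for 13 (8.54% of all genes), which are the members without overlap. The 2 male libraries labelled Glut1-KO had Slc2a1 within the Control range, so these data do not show loss of Glut1 in them. In the male libraries alone (5 Control, 2 labelled Glut1-KO) the median log2 fold change was 0.77 for pan-leukocyte, 0.51 for pan-myeloid, 0.49 for alveolar macrophage, 0.41 for monocyte-derived macrophage and 0.38 for neutrophil members. There the log2 fold change of Ptprc was 1.33, that of Fcer1g 1.15 and that of Ear2 1.97, whereas Csf1r was at 0.39, C1qa at 0.41 and Itgax at 0.49, and Aif1 and Ms4a7 were at -0.15 and -0.22. With the females alone against all Control libraries, a comparison added after the data were seen, the medians were 1.19, 1.16, 1.6, 1.18 and -0.36 for the same classes. Sex, Slc2a1 level and the individual mice cannot be told apart in this contrast between female and male Glut1-KO libraries.

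Variation within the groups tied many members together. After group means were removed, pairs among the 13 members without overlap had a median Pearson correlation of 0.56 over the 10 libraries (78 pairs). It was 0.16 among the other 23 members (253 pairs) and 0.29 for pairs of one of the 13 with one of the 23 (299 pairs). The 13 were picked by the contrast in these same libraries, which favours genes with a narrow spread within groups. Nothing is therefore read from the difference between these medians. Cybb with Itgax reached 0.96, and Coro1a, Csf1r and C1qc each reached 0.95 with C1qb. By class, the median was 0.61 among monocyte-derived macrophage, 0.48 among pan-leukocyte, 0.26 among pan-myeloid, 0.12 among alveolar macrophage and 0.06 among neutrophil members. Mrc1 ran against most other members, with -0.85 to Mpeg1, -0.72 to Fcer1g and -0.56 to Ptprc. Its positive values were 0.55 to Itgam, 0.39 to Trem2, 0.25 to S100a8, 0.12 to Ear2, 0.04 to Fcgr1 and 0.01 to Dock2. Cd14 followed S100a9 (0.91) and not Ptprc (0.09). Ptprc had a median correlation of 0.45 with the other 35 tested members and of 0.00 with all 15921 other genes. These correlations are descriptions. Only group means were removed, so any difference between female and male Glut1-KO libraries remains in them, as does any effect of depletion or scaling.

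**Figure D4:**
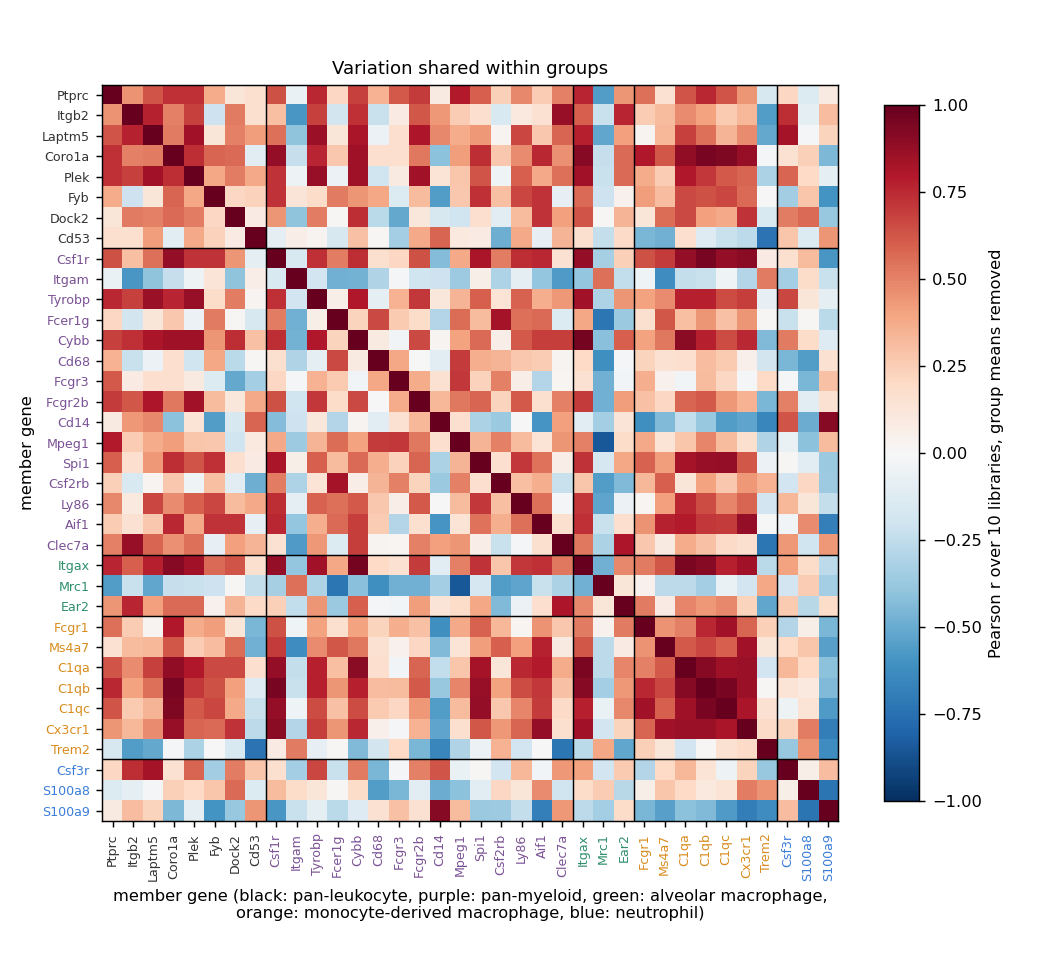
Pearson correlation of log2 CPM over 10 libraries with group means removed, for each pair of the 36 tested members (both axes, ordered by class and coloured in the labels); red is positive and blue negative. A red block joins Coro1a, Csf1r, Cybb, Itgax and the C1q genes, while Mrc1, Trem2, Itgam and S100a9 show blue against many members, down to -0.85 between Mrc1 and Mpeg1.

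The tested genes most like Ptprc by this measure were Gm22710 (0.94), Mmp12 (0.92), Rab11fip2 (0.91), Mapk9 (0.91), Gm20457 (0.90), Manea (0.89), C3ar1 (0.89), 0610037L13Rik (0.89), Phf11b (0.89) and Evi2a (0.88). None of these 10 was a member. Mmp12, a macrophage elastase, and C3ar1, a receptor for complement C3a, are known from myeloid cells.

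Cdh5, a cadherin of endothelial cells, also varied with several members within the groups, with 0.77 to Cybb, 0.76 to Itgb2, 0.71 to Laptm5 and Dock2, and 0.32 to Ptprc. Its value farthest from 0 was -0.82 to Itgam, and it stood at -0.51 to Mrc1. Epcam stood at -0.68 to Itgb2 and -0.29 to Ptprc. All 9 endothelial markers tested had a positive log2 fold change, with a median of 0.65 and 0 without overlap, and their sum was 118 to 422 CPM in Control and 176 to 573 CPM in Glut1-KO. The 12 genes of dissociation stress were all lower, with a median of -0.35 and 3 without overlap. The 9 epithelial markers had a median of 0.05. The part of endothelial content and of handling in the members' difference was not tested.

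Other genes of the members' pathways came from lists set by name, with members left out, and 0 genes of each list were called by limma. Among 19 other genes of adaptors with ITAM motifs and their receptors, 13 were tested, 11 were higher and 2 lower (median 0.72). Clec4n (dectin-2, a receptor for fungal mannan) stood at 1.24, 1.06, 1.04, 1.17 and 0.579 CPM in Control and 2.58, 3.19, 1.53, 2.94 and 1.49 CPM in Glut1-KO. Together with Fcgr4 (log2 fold change 1.39) it had no overlap, whereas Plcg2, a phospholipase and the most abundant gene of the list, was at -0.16 and the kinases Lyn and Syk at 0.18 and 0.33. Among the 6 other NADPH oxidase genes, 5 were higher and 1 lower (median 0.47). The widely expressed GTPase Rac1 was lower without overlap (-0.24). Among 10 other complement genes, 7 were higher and 3 lower (median 0.37), with C3, which epithelium also makes, at 0.39.

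Among 10 other colony-stimulating factors and their receptors, 7 were tested, 2 were higher and 5 lower (median -0.16). Il34, a ligand of Csf1r, stood at 44.4 to 69.9 CPM in Control and 49.9 to 78.8 CPM in Glut1-KO. Csf3, the granulocyte factor, stood at 1.06, 0.483, 1.38, 0.331 and 0.313 CPM in Control and 0.146, 0.119, 0.112, 0.0307 and 0.226 CPM in Glut1-KO, lower without overlap. Among 17 chemoattractants, 13 were tested, 6 were higher and 7 lower (median -0.03). The chemokine Ccl6 stood at 3.32, 1.91, 2.37, 3.41 and 1.18 CPM in Control and 4.87, 9.30, 3.97, 7.85 and 7.88 CPM in Glut1-KO, and Ccl9 also was higher without overlap (1.15). Cxcl1, which draws neutrophils, was lower without overlap, at 104, 23.9, 21.7, 23.6 and 17.2 CPM in Control and 11.0, 10.7, 7.97, 16.3 and 10.2 CPM in Glut1-KO. Among 19 other myeloid transcription factors 15 were tested, 9 were higher and 6 lower (median 0.05), led in level by Cebpa (0.31), Bhlhe40 (0.07) and Runx1 (-0.32).

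Among 23 other genes of tissue macrophages, 18 were tested, 13 were higher and 5 lower (median 0.59). Ctss, the lysosomal protease cathepsin S, was the 1 without overlap, at 7.04, 7.74, 7.43, 8.73 and 7.98 CPM in Control and 26.8, 25.5, 15.1, 16.1 and 11.8 CPM in Glut1-KO, the order of libraries seen for C1q apart from replicates 3 and 4. The most abundant of that list, Lyz2 (lysozyme) and Spp1 (osteopontin), which lung epithelium and tumour cells also make, were at -0.70 and -0.77 with SEs of 0.63 and 0.69. Of the other alveolar macrophage genes 13 were tested, 10 were higher and 3 lower (median 0.44), with Pparg, the nuclear receptor they need, at 0.05. This list also holds the keratin Krt19 (-0.25), which is among the epithelial markers as well, at 401 to 887 CPM in Control and 176 to 1050 CPM in Glut1-KO. Its counts are therefore not those of alveolar macrophages alone. Siglecf, on the same list, was below the filter, with means of 0.101 CPM in Control and 0.105 CPM in Glut1-KO. Of 14 other monocyte genes 8 were tested, 6 were higher and 2 lower (median 0.71).

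Other neutrophil genes gave 7 higher and 3 lower of 10 tested (median 0.49). Ltf, lactoferrin, which glandular epithelium also makes, ranged from 176 to 10400 CPM in Control and from 110 to 981 CPM in Glut1-KO, with a log2 fold change of -2.39 (SE 0.99), against the direction of most of the list. The neutrophil surface gene Ly6g stood at 0 to 0.0241 CPM in Control and 0 to 0.0613 CPM in Glut1-KO. Lymphocyte markers were mostly low. Of 15 T cell genes, 10 stayed below 1 CPM in every library, and their summed level was 4.02 to 15.1 CPM in Control and 5.28 to 15.6 CPM in Glut1-KO. Of the 9 NK cell genes 0 were tested, and their sum was at most 0.865 CPM in Control and 2.42 CPM in Glut1-KO. B cell and plasma cell genes summed to 5.32 to 14.7 and 5.73 to 26.4 CPM, most of it Cd79b, with 3 genes tested and a median of 0.49. Dendritic cell genes summed to 10.4 to 16.8 and 9.97 to 24.2 CPM (7 tested, median 0.43), mast cell, basophil and eosinophil genes to 11.0 to 102 and 17.8 to 30.2 CPM (3 tested, median 0.61), and platelet genes to 2.48 to 11.3 and 1.35 to 3.4 CPM (2 tested, median -0.59).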

How the data were processed

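The authors made libraries with a stranded mRNA kit, read them as single ends on a NextSeq, trimmed with Cutadapt and mapped to mm10 with HISAT2, and the submitters' processing notes name featureCounts 1.4.4 as the counter. The use of strand and the annotation release are not given in the sources used here. The deposited table holds raw read counts per gene, with 10 columns that equal the 10 single files, and no normalization. A deposited table of log2 values was not used.

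Counts were analysed in R 4.3.3. Genes were kept by filterByExpr of edgeR 4.0.16 (minimum count 10, minimum total 15), scaled by TMM, transformed by voom (prior count 0.5) and fitted by limma 3.58.1 with the group alone. Adjustment of p-values followed Benjamini and Hochberg across the 15922 genes, with a threshold of 0.05. They measure the spread between libraries, which may come from shared mice. The quasi-likelihood test of edgeR, DESeq2 1.42.0, other filters, scaling by library totals, sex as a covariate, males alone, females against Control, blocks and the omission of each library were alternatives. The script was tested on simulated data. For correlations, group means were removed from log2 CPM. Gene positions and exons came from GENCODE M21 on GRCm38 and promoters from RefSeq. Levels in every library are given for Ptprc, for the 3 most abundant members of each class and for members without overlap, and Csf1r, Adgre1 and Chil3 were added after their values were seen. From each other list at most 3 abundant genes and 3 without overlap are named. Slc2a1, Epcam, Ly6g and Siglecf are named besides as checks of the groups and cells. The members and lists were chosen with earlier results of these data known. The replicate numbers did not pair the groups (same-number correlations of 0.04, -0.09, 0.03, 0.20 and -0.13).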

Additional observations from a re-analysis of the deposited data

Results flagged for a closer look

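Of 80 sets of member values (40 genes in 2 groups of 5 libraries), 7 held 1 library far from the rest. Its gap to the nearest exceeded 0.71 of the group's range. For normally distributed values chance alone gives about 1 in 20. CPM on few reads need not be distributed so, and whether 7 of 80 exceeds chance was not tested. Mrc1 stood at 28.4 CPM in Control replicate 2 against 5.77 to 11.4 CPM in the others, and at 22.1 CPM in Glut1-KO replicate 5 against 4.83 to 7.99 CPM. Marco stood at 0.521 CPM in Glut1-KO replicate 5 against 0.0449 to 0.166 CPM, on 23 reads. Trem2 stood at 2.85 CPM in Control replicate 5 against 0.278 to 0.560 CPM, on 118 reads against at most 30. Csf3r stood at 1.01 CPM in Control replicate 1 against 0.167 to 0.407 CPM. S100a8 stood at 1.81 CPM in Control replicate 5 against 0.229 to 0.582 CPM, and at 1.5 CPM in Glut1-KO replicate 2 against 0.180 to 0.453 CPM. The outlying libraries differ from gene to gene, except that Glut1-KO replicate 5 is highest for both Mrc1 and Marco and Control replicate 5 for both Trem2 and S100a8.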

How the results depend on the processing

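Over 20 alternatives, class medians moved by more than the spread between libraries in 9 values and by less in 90, and the cause was not tested. DESeq2 called 215 genes and 13 members against 0 and 0 in limma. With sex as a covariate 3 genes were called, with males only 1, and with females against Control 9, and members called stayed at 0 in each. The alveolar macrophage median of 1.05, over only 3 tested genes, was 1.73 with no filter and 0.40 at a mean CPM of at least 1, since different genes were tested. It was 0.49 with sex as a covariate and in males only, and 1.6 in females against Control. The pan-myeloid median of 0.90 was 0.51 with sex as a covariate and in males only. All Control libraries were male, so a sex term could be fitted only from the Glut1-KO libraries. The group effect with that term then rests on the 2 male Glut1-KO libraries, so these settings are not separate checks. Members without overlap numbered 23 of 37 tested with females against Control, where 4.26% of all genes were higher without overlap. Leaving out 1 library at a time gave 0 to 1 genes called (1 without Control replicate 3), 0 members called, 13 to 20 members without overlap (20 without Glut1-KO replicate 5) beside 1.07% to 1.89% of all genes, and medians of 0.88 to 1.14 for pan-leukocyte, 0.73 to 1.07 for pan-myeloid, 0.84 to 1.56 for alveolar macrophage (1.56 without Control replicate 4, 1.49 without Glut1-KO replicate 4), 0.57 to 1.00 for monocyte-derived macrophage and -0.16 to 0.64 for neutrophil members. Without the replicate 5 library of Control or the replicate 4 library of Glut1-KO the neutrophil median was -0.16 or -0.11. With the replicate block 0 genes were called and the medians were 1.05, 0.97, 1.12, 0.84 and 0.15, and the block changed no call. With the number in the column names as a correlated block, 0 genes were called and the medians were 1.02, 0.93, 1.06, 0.81 and 0.20. Aif1, Cd14, Cd53, Fcgr3, Itgam, Mrc1, Ms4a7, S100a9 and Trem2 changed sign in 2 to 7 of their settings. At a mean CPM of at least 1 no neutrophil member was left to test. Read counts of 3 to 31 a library in Control limit Ear2, Fcgr1, Spi1 and Fcer1g.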
